A study of Homo sapiens with 21 samples.

Results

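The epithelial-to-mesenchymal transition (EMT) is started by a small set of transcription factors, and the genes of 9 of them are described here: SNAI1, SNAI2, ZEB1, ZEB2, TWIST1, TWIST2, PRRX1, TCF4 and FOXC2. They are 9 of the 53515 gene rows in the deposited counts, chosen by name and matched through their Ensembl identifiers. During EMT, epithelial cells give up their junctions and polarity and take on the shape and motility of mesenchymal cells. The SNAIL proteins (SNAI1, SNAI2) and the ZEB proteins (ZEB1, ZEB2) are zinc-finger factors that bind E-box letters in the promoters of epithelial genes such as CDH1, which encodes E-cadherin, and repress them. TWIST1, TWIST2 and TCF4 are basic helix-loop-helix factors, PRRX1 is a paired-related homeobox factor, and FOXC2 is a forkhead factor. The microRNAs of the miR-200 family repress ZEB1 and ZEB2, and the ZEB proteins in turn repress the miR-200 genes.

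Poly(A) RNA of 17 cancer cell lines was sequenced in 21 libraries: 7 parental lines and 10 lines derived from them by long exposure to a drug. HepG2 (liver) gave the sorafenib-resistant lines HepG2S1 and HepG2S3, and PancVB (the pancreatic line Panc03.27) gave PancB1Q and PancB1V, resistant to 5-fluorouracil. Of the lung lines, HCC4006P1 gave the erlotinib-resistant HCC4006ER, HCC4006P2 gave HCC4006GR and HCC827P gave HCC827GR, both resistant to gefitinib. Of the ovarian lines, UWB1.289 gave U10 and U100, resistant to the PARP inhibitor olaparib, and IGROV-1 gave IGROV-1/CDDP under cisplatin. There are 2 libraries each for HCC4006P1, HCC4006ER, HepG2 and HepG2S3, and 1 for each of the other 13 lines. Nothing in the labels says that the replicate libraries came from separate cultures, so p-values measure only the spread between these libraries. Each resistant line is a single derivative of its parent, carried through months of selection, so a change cannot be told apart from other differences between the derivative and its parent. HepG2S1 and HepG2S3, PancB1Q and PancB1V, and U10 and U100 each share a parental library, so their changes are not independent. U10, U100 and IGROV-1/CDDP belong to a partial EMT class and the other 7 resistant lines to a full EMT class. The classes came from cell shape and from the expression, in these cell lines, of a gene list that includes SNAI1, SNAI2, ZEB1, ZEB2, TWIST1 and PRRX1. They are thus no independent evidence of how those 6 genes behave.

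Levels are counts scaled to 1000000 reads on genes (CPM), from library totals of 9851195 to 36639473 counts. A count of 3, taken as the detection floor, is worth between 0.0819 CPM (HepG2 replicate 1) and 0.305 CPM (HepG2S1), depending on depth. Changes are differences of log2(CPM + 1) between a resistant line and its parent, with an interval from the 95% Wilson bounds of the counts, which covers counting error only. This scale understates the change of a gene at a low level. A gene is said to rise or fall in a pair of lines where its change is at least 1 in size, and in a fit where its adjusted p is under 0.05. In such cultures a smaller share of cells with a transcript and less of it per cell cannot be told apart. In replicate 1 of HCC4006P1 a stretch is missing that starts at position 30620149 of chromosome 7 and runs on in the alphabetical order of chromosomes. There, reads were found for 0 of the 1679 genes that have 50 or more in replicate 2, and the CPM of all its other genes are thereby raised by about 22.1%. SNAI2 lies in that stretch, so its HCC4006P1 level comes from replicate 2 alone. The 2 libraries of HCC4006P1 also stood farther apart than those of any other line for SNAI1, ZEB1, ZEB2, TWIST1 and TCF4, by 0.45 to 0.77 on the log2(CPM + 1) scale.

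The tissue labels were checked against marker genes. The 5 liver markers summed to 25254 CPM in HepG2 but to 5.08 CPM in HepG2S1 and 28.9 CPM in HepG2S3, where ALB (albumin) had 0 and 9.17 CPM against 12183 CPM in the parent. Some markers of other tissues were higher in both derivatives. KRT7 had 1.03 CPM in HepG2 against 2733 and 2912 CPM, and MUC1 had 0.0136 against 122 and 22.9 CPM. EGFR had 24.7 against 372 and 445 CPM, and MUC16 had 0.028 against 21.3 and 7.62 CPM. Other such markers were lower in both. KRT19 had 347 CPM in HepG2 against 102 and 164 CPM, SOX9 had 248 against 1.73 and 0.748 CPM, and PAX8 had 4.58 against 1.12 and 0.960 CPM. NKX2-1, SFTPB and NAPSA were below 1 CPM in HepG2 and both derivatives. HCC4006P1 and HCC4006P2 carry the same line name but differed in part of the 4 lung markers. NKX2-1, NAPSA and SFTPB had 0.0802, 0.106 and 0.237 CPM in HCC4006P1 against 113, 143 and 10.1 CPM in HCC4006P2. EGFR was alike, with 1036 and 962 CPM. The part that these marker differences, or any difference of identity, may play in the changes below was not tested. Of the 5 pancreatic markers, 4 reached 1 CPM in each line of the PancVB family, and CFTR was at 0. In PancVB, KRT7 had 2543 CPM, KRT19 677, SOX9 94.3 and MUC1 3.73 CPM. Of the 4 ovarian markers, PAX8 had 357 to 664 CPM in the ovarian lines, but EMX2 and WT1 were below 1 CPM in all 5 of them, and MUC16 had 0.473 and 0.554 CPM in IGROV-1 and IGROV-1/CDDP.

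Among the 9 genes, ZEB1 and ZEB2 carry by far the most letters that the miR-200 family can pair with, and these letters are shown because miR-200 microRNAs were transfected into these lines, outside the data shown here, to reverse EMT. The mature microRNAs (RefSeq, GRCh38.p14) fall into 2 groups by their seed, which is bases 2 to 8, in capitals.
miR-200b-3p: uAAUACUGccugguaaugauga
miR-200c-3p: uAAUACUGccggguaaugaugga
miR-429: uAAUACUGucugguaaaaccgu
miR-200a-3p: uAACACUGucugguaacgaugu
miR-141-3p: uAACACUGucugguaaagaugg

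The seeds of the first 3 pair with CAGTATT and those of the other 2 with CAGTGTT, read on the transcript strand. The 3′ UTR of the canonical ZEB1 transcript (2540 bases, GENCODE on GRCh37) held 6 of the former and 3 of the latter, and that of ZEB2 (5370 bases) held 5 and 4. Of 2616 other 3′ UTRs between 80 and 125% of the length of that of ZEB1, 0 held as many, and for ZEB2 it was 1 of 1225 (0.0816%). TCF4 held 3 matches in 5850 bases, as did 20% of UTRs of like length or more, and SNAI2 held 1 in 1209 bases. SNAI1, TWIST1, TWIST2, PRRX1 and FOXC2 held none of these letters, although the UTR of PRRX1 (3235 bases) is longer than that of ZEB1. A match is a description of letters and not a measured site. Shown are the first matches of each kind after the stop codon, with the match in capitals.
ZEB1, chr10:31816548-31816568, plus strand: tgttttatcttatCAGTATTa
ZEB1, chr10:31816961-31816981, plus strand: aaatcatcagaatCAGTGTTt
ZEB2, chr2:145146803-145146823, minus strand: caaaaattttgtaCAGTGTTa
ZEB2, chr2:145146619-145146639, minus strand: cactaccatacatCAGTATTt

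**Figure D1:**
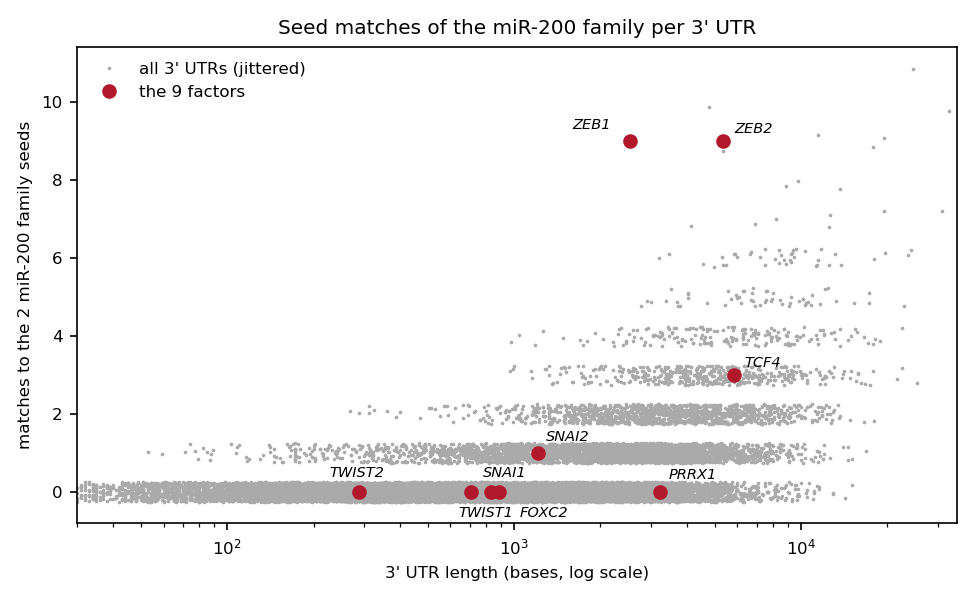
Number of matches to both miR-200 family seeds (vertical axis) against 3′ UTR length in bases (horizontal axis, log scale), with 1 grey point per canonical protein-coding transcript (19403, jittered vertically) and the 9 factors in red. ZEB1 and ZEB2 sit at 9 matches each, TCF4 at 3, SNAI2 at 1 and the other 5 factors at 0.

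The microRNAs themselves are not seen in these libraries. MIR200A, MIR200B, MIR200C, MIR141 and MIR429 had at most 0.43 CPM in any line, and short mature microRNAs are not captured by a poly(A) protocol, so these values say nothing of their abundance.

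All 9 factors were found above the floor in at least 1 line, but no line other than HCC4006ER had all 9 at 1 CPM or more. SNAI1 reached 1 CPM in 17 of 17 lines, ZEB1 in 16, SNAI2 in 14, ZEB2 and TCF4 in 13, TWIST2 in 10, TWIST1 in 9, PRRX1 in 3 and FOXC2 in 1. HepG2 had 2 of the 9 at that level, the fewest, and its derivatives HepG2S1 and HepG2S3 had 8 and 7. IGROV-1/CDDP had 3.

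**Figure D2:**
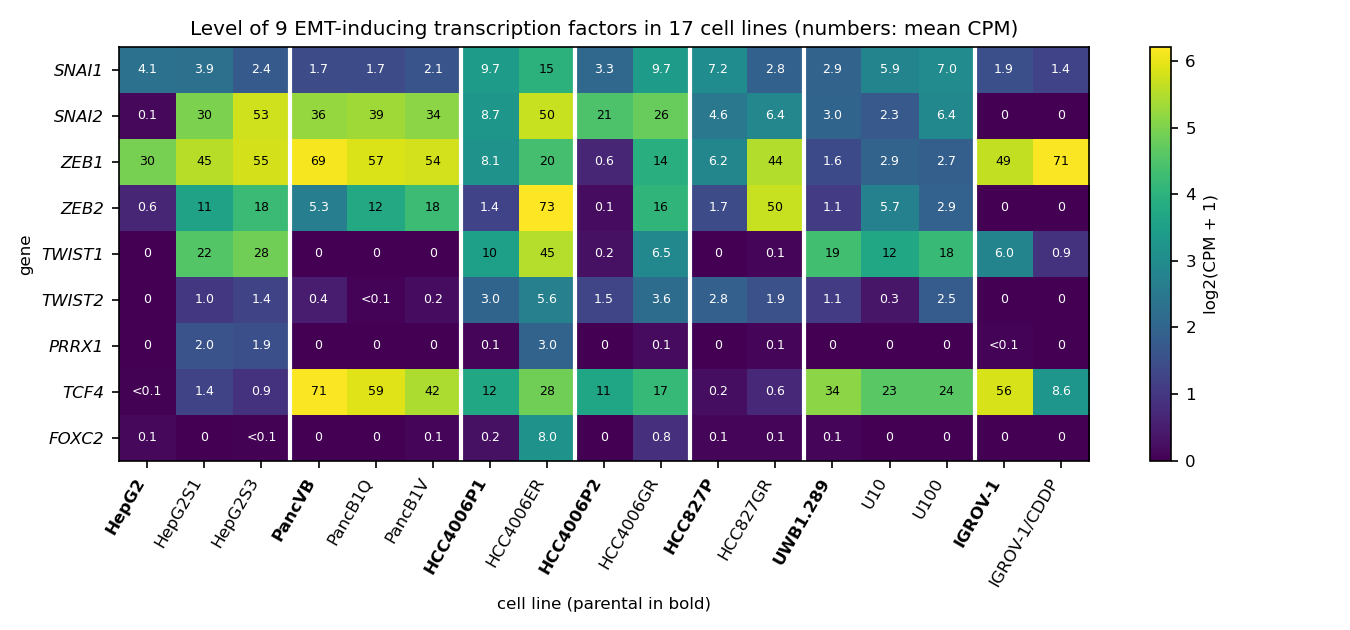
Level of each factor (rows) in each cell line (columns, parental lines in bold, white bars between parental lines), with colour for log2(CPM + 1) and the mean CPM written in each cell. ZEB2 is brighter in most resistant lines than in their parents, TWIST1 and SNAI2 appear in the HepG2 derivatives, and PRRX1 and FOXC2 are dark nearly everywhere.

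Levels of different genes can be compared only per length, here as CPM per kilobase of the canonical transcript. By this measure SNAI2 led in 7 lines, TWIST1 in 5, ZEB1 in 4 and SNAI1 in 1. ZEB1 made up 66.5% of the sum of the 9 in HepG2 and 83.1% in IGROV-1/CDDP, SNAI2 made up 64.8% in HCC4006P2, and TWIST1 56.6% in UWB1.289. The sum was lowest in HepG2, at 7.54 CPM per kb, and highest in HCC4006ER, at 83.8 CPM per kb. In HepG2S3 it was 56.2 CPM per kb and was led by SNAI2 (24.2) and TWIST1 (17.3). The PancVB family had 33.3 to 39.3 CPM per kb in both parental and resistant lines, led by SNAI2 throughout. These values assume that each line uses the canonical transcript.

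**Figure D3:**
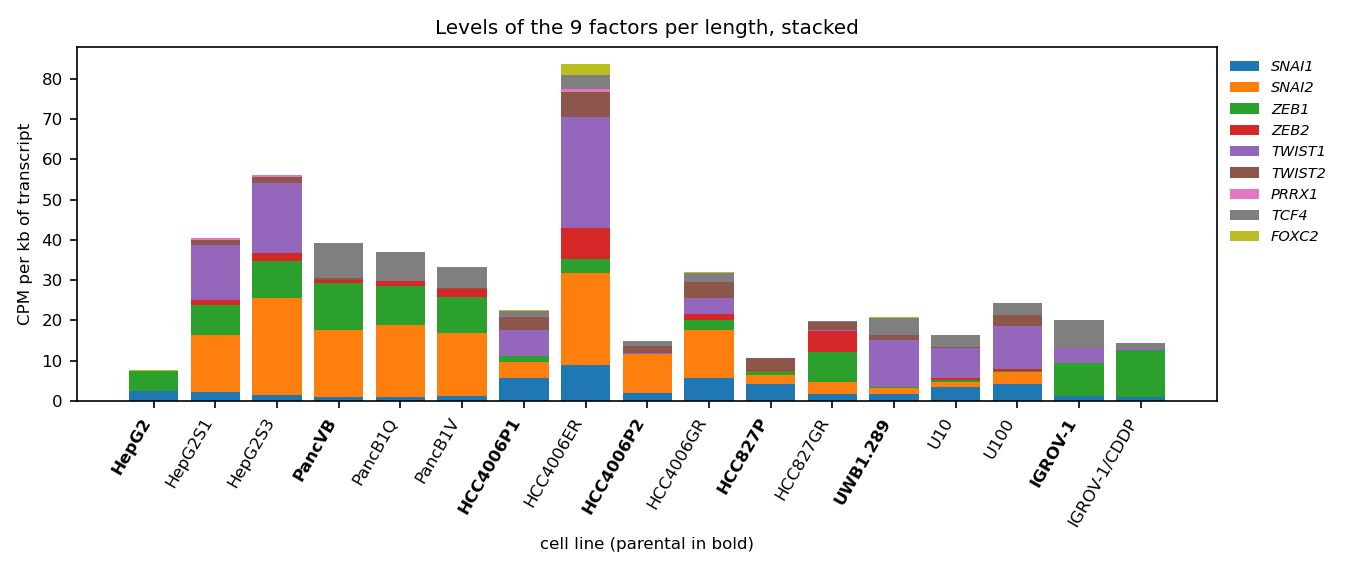
CPM per kb of canonical transcript for the 9 factors, stacked, in each cell line (parental lines in bold). HCC4006ER has the tallest bar (83.8) and HepG2 the shortest (7.54), and SNAI2, TWIST1 or ZEB1 makes up the largest share in 16 of 17 lines.

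ZEB2 was the factor that moved in the most resistant lines. ZEB2 (chr2:145121931-145278624, GRCh37, minus strand) rose by at least 1 on the log2(CPM + 1) scale in 8 of 10 resistant lines, among them all 7 of the full EMT class, and fell by that much in none. It had 0.491 and 0.689 CPM in the HepG2 libraries against 10.9 CPM in HepG2S1 and 17.7 and 17.6 CPM in HepG2S3. In the lung lines it had 1.87 and 0.872 CPM in HCC4006P1 against 78.7 and 67.3 CPM in HCC4006ER, 0.147 CPM (2 counts) in HCC4006P2 against 15.6 CPM in HCC4006GR, and 1.73 CPM in HCC827P against 50.5 CPM in HCC827GR. In the pancreatic lines it had 5.34 CPM in PancVB, 12.3 CPM in PancB1Q and 18.0 CPM in PancB1V. In the HepG2S3 and HCC4006ER pairs, with 2 libraries on both sides, all resistant libraries lay above all parental ones. The order was the same in the other pairs, but these have 1 library in at least 1 of the lines.
The changes were 2.90 (2.39 to 3.35) in HepG2S1, 3.55 (3.18 to 3.86) in HepG2S3, 4.96 (4.55 to 5.32) in HCC4006ER, 3.86 (3.26 to 4.17) in HCC4006GR and 4.24 (3.79 to 4.64) in HCC827GR. Those in PancB1Q and PancB1V were smaller, at 1.07 (0.71 to 1.43) and 1.58 (1.23 to 1.92). With 2 counts in HCC4006P2, the ratio of HCC4006GR to its parent was 106 (counting interval 29.1 to 883). In the ovarian lines ZEB2 had 1.12 CPM in UWB1.289, 5.66 CPM in U10 and 2.90 CPM in U100, with changes of 1.65 (0.88 to 2.33) and 0.88 (0.09 to 1.59), and it had 0 counts in both IGROV-1 and IGROV-1/CDDP. A count of 0 allows up to 0.109 and 0.119 CPM in these libraries. In order of level, HCC4006ER came first and HCC827GR second, and then PancB1V, HepG2S3 and HCC4006GR, whose intervals overlapped.

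ZEB1 (chr10:31607424-31818742, plus strand), the other ZEB factor, was already high in 3 of the parental lines and rose in 3 pairs, all with a parent at 10.2 CPM or less. It had 31.9 and 27.6 CPM in HepG2, 69.3 CPM in PancVB and 48.8 CPM in IGROV-1, but 10.2 and 6.10 CPM in HCC4006P1, 6.23 CPM in HCC827P, 1.63 CPM in UWB1.289 and 0.588 CPM in HCC4006P2. It reached 44.1 CPM in HCC827GR, 13.8 CPM in HCC4006GR, and 20.4 and 18.8 CPM in HCC4006ER. The changes there were 2.64 (2.30 to 2.98), 3.22 (2.60 to 3.70) and 1.18 (0.84 to 1.51), the 3 changes of at least 1 among the 10. The last was 0.89 when HCC4006P1 was taken from replicate 1 alone, whose raised CPM make the change smaller.
In the HepG2 derivatives ZEB1 had 45.3 CPM in HepG2S1 and 51.4 and 58.0 CPM in HepG2S3, changes of 0.59 (0.38 to 0.80) and 0.86 (0.71 to 1.01). Under TMM-scaled library sizes these were 0.18 and 0.57. ZEB1 was lower than in the parent in both pancreatic resistant lines, with 56.6 CPM in PancB1Q and 54.0 CPM in PancB1V and changes of -0.29 (-0.43 to -0.15) and -0.35 (-0.50 to -0.21), the first of which was -0.12 under TMM-scaled library sizes. IGROV-1/CDDP had the highest level of all lines, 70.6 CPM, a change of 0.52 (0.38 to 0.67), while U10 and U100 had 2.92 and 2.67 CPM with intervals that included 0. The gene ZEB1-AS1 overlaps the start of ZEB1 on the other strand and had 0.29 to 3.22 CPM. The kit keeps strand, but the strand setting of the counting is not given in the sources used here, so reads of the 2 genes in the overlap may not be told apart.

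The SNAIL factors behaved unlike each other. SNAI2 (Slug; chr8:49830157-49834299, minus strand) had 1 and 6 counts in the HepG2 libraries, 0.0273 and 0.172 CPM, against 30.5 CPM in HepG2S1 and 57.0 and 48.7 CPM in HepG2S3, the highest level of all lines. The changes were 4.84 (4.48 to 5.07) and 5.61 (5.34 to 5.76). It had 8.72 CPM in replicate 2 of HCC4006P1 against 54.7 and 46.0 CPM in HCC4006ER, a change of 2.40 (2.12 to 2.68). No other pair changed by 1 or more, although SNAI2 was plentiful in several.
It had 36.4, 39.0 and 33.9 CPM in PancVB, PancB1Q and PancB1V, with both changes inside counting error, and 21.1 and 26.1 CPM in HCC4006P2 and HCC4006GR. HCC827P and HCC827GR had 4.56 and 6.37 CPM. UWB1.289 and U10 had 3.01 and 2.34 CPM, and U100 had 6.41 CPM, a change of 0.88 (0.25 to 1.5). IGROV-1 and IGROV-1/CDDP had 0 counts, as they did for ZEB2. SNAI2 thus rose in 3 of the 7 full EMT pairs, and in 3 of the other 4 (PancB1Q, PancB1V and HCC4006GR) its parental line already had 21.1 CPM or more.

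SNAI1 (Snail; chr20:48599517-48605423, plus strand) was read in every library, at 1.38 to 15 CPM, and went both ways. HCC4006ER had 15 and 14.8 CPM against 12.2 and 7.08 CPM in HCC4006P1, a change of 0.58 (0.24 to 0.92). That change was 0.27 against replicate 1 alone, whose raised CPM make it smaller. HCC4006GR had 9.66 CPM against 3.31 CPM in HCC4006P2, a change of 1.31 (0.77 to 1.83), and U100 had 7.02 CPM against 2.93 CPM in UWB1.289, a change of 1.03 (0.40 to 1.63) that was 0.95 under TMM-scaled library sizes. SNAI1 was lower in HCC827GR, with 2.83 CPM against 7.15 CPM in HCC827P, a change of -1.09 (-1.62 to -0.54), and in HepG2S3, with 2.25 and 2.51 CPM against 4.01 and 4.10 CPM in HepG2, a change of -0.58 (-0.99 to -0.16). U10 had 5.95 CPM, a change of 0.82 (0.15 to 1.48). In HepG2S1, PancB1Q, PancB1V and IGROV-1/CDDP the interval included 0. SNAI1 thus rose in HCC4006GR and fell in HCC827GR, both of the full EMT class.

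TWIST1 (chr7:19060614-19157259, minus strand), a helix-loop-helix factor known from mesoderm, was absent in some families and abundant in others. It had 0 counts in both HepG2 libraries, 22.3 CPM in HepG2S1, and 28.0 and 28.5 CPM in HepG2S3. Set against 3 counts in each HepG2 library, these levels are at least 266-fold and at least 336-fold higher. It had 12.1 and 8.62 CPM in HCC4006P1 against 45.6 and 44.3 CPM in HCC4006ER, a change of 2.01 (1.74 to 2.29). In both families all resistant libraries lay above all parental ones.
HCC4006P2 had 3 TWIST1 counts, 0.22 CPM, against 6.49 CPM in HCC4006GR, a ratio of 29.4 (9.78 to 145). The PancVB family had 0 counts in 3 of 3 lines, and HCC827P and HCC827GR had 0 and 1 count, so 3 of the 7 full EMT lines had no TWIST1 above the floor. In the ovarian lines TWIST1 was highest in a parent, with 19.1 CPM in UWB1.289 against 12.1 CPM in U10 (change -0.62, -1.03 to -0.20) and 17.5 CPM in U100. It fell from 6 CPM in IGROV-1 to 0.87 CPM in IGROV-1/CDDP, a change of -1.90 (-2.34 to -1.41).

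TWIST2 (chr2:239756673-239832230, plus strand) stayed low, at 0 to 6.11 CPM. It had 0 counts in HepG2, 1.02 CPM in HepG2S1, and 1.53 and 1.34 CPM in HepG2S3, at least 12.1-fold and at least 17.1-fold higher. HCC4006ER had 5.01 and 6.11 CPM against 2.83 and 3.18 CPM in HCC4006P1, a change of 0.71 (0.20 to 1.21), and HCC4006GR had 3.57 CPM against 1.47 CPM in HCC4006P2, a change of 0.89 (0.19 to 1.54). TWIST2 was lower in PancB1Q than in PancVB, on 1 and 9 counts. The intervals of the other 5 pairs included 0.

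TCF4 (chr18:52889416-53332018, minus strand), which encodes the E protein E2-2 and not the WNT factor TCF7L2 that shares its alias, had its highest level in a parental line. It had 71.4 CPM in PancVB, 56.4 CPM in IGROV-1 and 34.1 CPM in UWB1.289, and in the derivatives of all 3 it was lower. In IGROV-1/CDDP it fell to 8.62 CPM, a change of -2.58 (-2.82 to -2.33). PancB1Q and PancB1V had 58.7 and 42.4 CPM, changes of -0.28 (-0.42 to -0.14; -0.11 under TMM-scaled library sizes) and -0.74 (-0.90 to -0.58), and U10 and U100 had 23.5 and 23.8 CPM, changes of -0.52 (-0.83 to -0.20) and -0.50 (-0.79 to -0.21).
In the lung lines TCF4 went the other way. HCC4006ER had 30.5 and 26.1 CPM against 15.4 and 8.67 CPM in HCC4006P1, a change of 1.17 (0.88 to 1.45). That change was 0.83 against replicate 1 alone, whose raised CPM make it smaller. HCC4006GR had 17 CPM against 11.5 CPM in HCC4006P2, a change of 0.53 (0.16 to 0.90). HCC827P and HCC827GR had 3 and 10 counts. HepG2 had 1 count in each library against 1.42 CPM in HepG2S1 and 0.75 and 1.01 CPM in HepG2S3, ratios of 50.8 (11.7 to 461) and 31.4 (8.28 to 266).

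PRRX1 (chr1:170631869-170708562, plus strand) and FOXC2 (chr16:86600435-86603334, plus strand) were read in few lines. PRRX1 had 0 counts in HepG2 against 2.03 CPM in HepG2S1 and 2.28 and 1.47 CPM in HepG2S3, at least 24.2-fold and at least 22.3-fold higher. It had 1 count in each HCC4006P1 library against 3.19 and 2.72 CPM in HCC4006ER, a ratio of 56.5 (15.3 to 472). In the other 12 lines it had at most 2 counts. FOXC2 had 4 counts in each HCC4006P1 library against 7.24 and 8.73 CPM in HCC4006ER, a change of 2.89 (2.35 to 3.26). HCC4006GR had 0.794 CPM (12 counts) where HCC4006P2 had 0. No other line had more than 7 FOXC2 counts in all, so that both of its gains were in derivatives of HCC4006 lines.

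**Figure D4:**
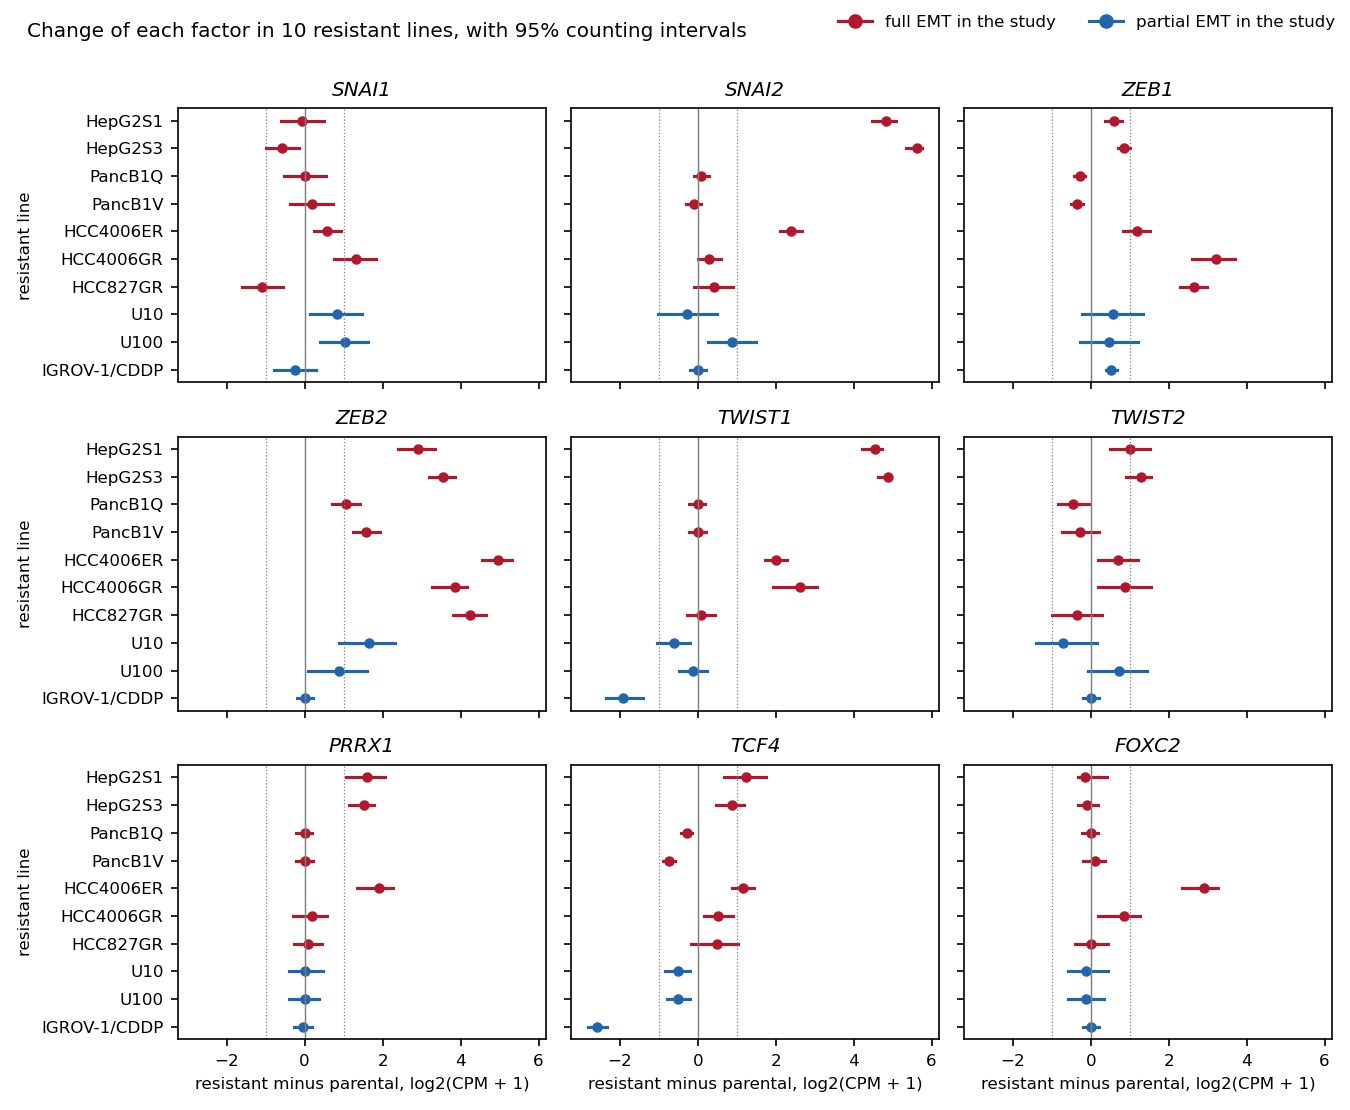
Change of each factor (1 panel each) in the 10 resistant lines, as resistant minus parental log2(CPM + 1) on the horizontal axis, with points for the change, bars for the 95% counting interval, dotted lines at -1 and 1, and colour for the full or partial EMT class. ZEB2 lies right of 1 in all 7 full EMT lines (1.07 to 4.96), while SNAI1 and TCF4 have points on both sides of 0.

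Counted over pairs, the number of factors that rose by at least 1 differed widely. It was 7 of 9 in HCC4006ER (background: 11.9% of genes with at least 1 CPM in either line), 6 of 9 in HepG2S1 (25.5%), 5 of 9 in HepG2S3 (27.3%), 4 of 9 in HCC4006GR (7.75%) and 2 of 9 in HCC827GR (10.6%). It was 1 of 9, ZEB2, in PancB1Q (6.1%), PancB1V (8.89%) and U10 (6.27%), 1 of 9, SNAI1, in U100 (6.43%), and 0 of 9 in IGROV-1/CDDP (5.55%). A fall by at least 1 was seen for 2 of 9 in IGROV-1/CDDP (7.21%) and for 1 of 9 in HCC827GR (7.67%). It was seen for 0 of 9 in HepG2S1 (18.4%), HepG2S3 (17.7%), PancB1Q (9.41%), PancB1V (7.25%), HCC4006ER (11.9%), HCC4006GR (7.47%), U10 (5.11%) and U100 (1.73%). With 9 genes, a count of 1 is near what the background gives in most of these pairs. When HCC4006P1 was taken from replicate 1 alone, which leaves SNAI2 without a value, the count in HCC4006ER was 4. The CPM of that library are raised by about 22.1% through its missing stretch, which makes these changes smaller. TMM scaling moved the median change of all genes from 0.25 to -0.13 in HepG2S1, from 0.28 to 0.02 in HepG2S3 and from -0.12 to 0.03 in PancB1Q. The 90 changes of the 9 factors had 0 changes of sign under that scaling.

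In HepG2S3 against HepG2, where both lines have 2 libraries, edgeR's quasi-likelihood test was run with p-values adjusted by Benjamini-Hochberg over all 16929 genes tested, of which 31.4% were called higher and 32.1% lower. Of the 9 factors, 3 passed the filter on low counts with reads in both lines. ZEB2 rose by a fitted log2 fold change of 4.58 ± 0.26 (SE; edgeR adjusted p = 0.000125) and ZEB1 by 0.56 ± 0.15 (edgeR adjusted p = 0.0246), and SNAI1 fell by 1.08 ± 0.24 (edgeR adjusted p = 0.0108).
The ZEB1 and SNAI1 calls were lost when either HepG2S3 library was left out, with edgeR adjusted p of 0.123 and 0.241 for ZEB1 and 0.137 and 0.098 for SNAI1. The ZEB2 call held in the 9 alternatives run, with an edgeR adjusted p of 0.000353 at most. SNAI2, TWIST1, TWIST2, PRRX1 and TCF4 passed the filter through HepG2S3 alone, so they had to be higher there to be tested at all. All 5 were called higher, but their counts and ratios above are given as a description, with no p. FOXC2, with at most 6 counts in a library, did not pass the filter.

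In HCC4006ER against HCC4006P1, the edgeR test was run over the 12791 genes outside the stretch that is missing from the parental library, of which 24.1% were called higher and 24.9% lower. Of the 9 factors, 6 passed the filter with reads in both lines, and all 6 rose. The fitted log2 fold change was 5.80 ± 0.24 for ZEB2 (edgeR adjusted p = 1.37e-05), 2.18 ± 0.14 for TWIST1 (7.12e-05) and 1.35 ± 0.19 for ZEB1 (0.00152). It was 1.31 ± 0.20 for TCF4 (edgeR adjusted p = 0.00228), 0.92 ± 0.27 for TWIST2 (0.0293) and 0.71 ± 0.19 for SNAI1 (0.0234). PRRX1 and FOXC2 passed the filter through HCC4006ER alone and were called higher, which is again a description with no p.
SNAI2 was tested in a fit over all 17 lines without the incomplete library, in which the single HCC4006P1 library is assumed to vary like the others, and rose by 2.41 ± 0.32 (edgeR adjusted p = 0.00192). The SNAI1 call was lost without either HCC4006ER library (edgeR adjusted p = 0.11 and 0.116) and with the stretch included (0.0993). The TWIST2 call was lost without replicate 2 of HCC4006ER (0.212), with the stretch included (0.137) and in the fit over all lines (0.191). The calls for ZEB1, ZEB2, TWIST1 and TCF4 held in the 10 alternatives run.

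**Figure D5:**
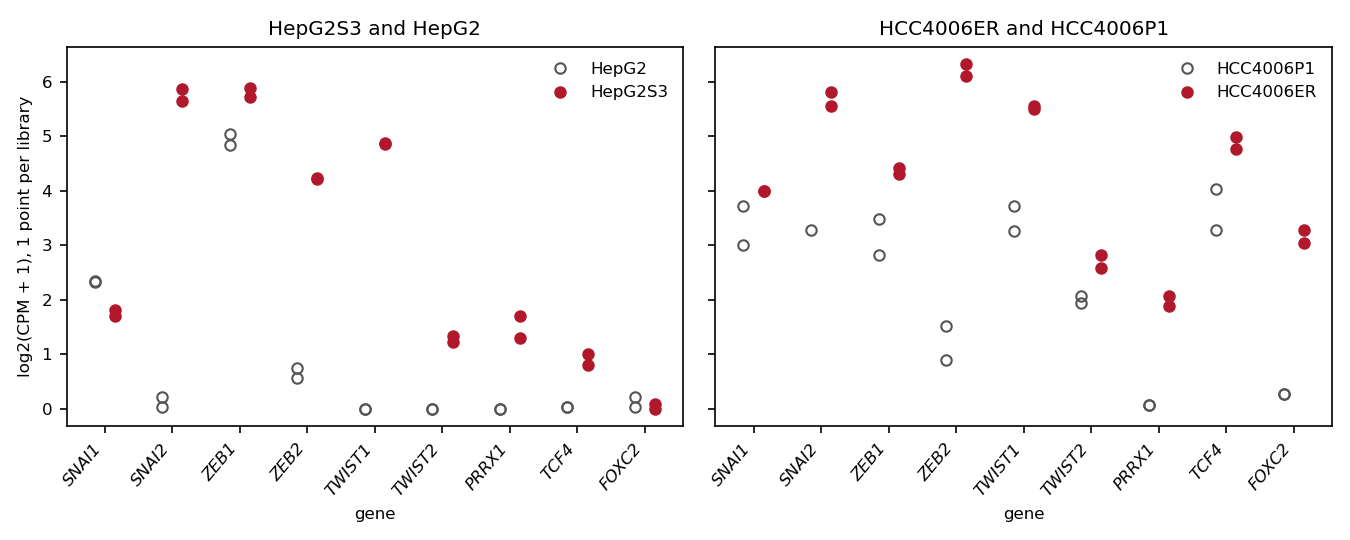
Level of each factor as log2(CPM + 1), with 1 point per library, in HepG2 (open) and HepG2S3 (filled) on the left and in HCC4006P1 (open) and HCC4006ER (filled) on the right. On the left SNAI1 alone is lower in both resistant libraries, on the right all 9 factors are higher, and SNAI2 has 1 parental point because the other library lacks its stretch of the genome.

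The 2 changes were set against each other in 1 edgeR fit of the 8 libraries, over 14479 genes of which 28.2% differed towards HepG2S3 and 27.7% towards HCC4006ER. The change of SNAI1 was lower in the sorafenib model by 1.77 ± 0.30 on the fitted log2 scale (edgeR adjusted p = 0.000981), since it fell there and rose in the erlotinib model. ZEB1 and ZEB2 rose in both and by less in HepG2S3, with differences of -0.76 ± 0.24 (edgeR adjusted p = 0.0237) and -1.20 ± 0.37 (edgeR adjusted p = 0.0219). TWIST1, TWIST2 and TCF4 rose more in HepG2S3 on the fitted log2 scale, with edgeR adjusted p of 1.78e-06, 0.000455 and 0.00237. For TCF4, with 1 count in each HepG2 library, the order depended on the scale. Its change on the log2(CPM + 1) scale was 0.87 in HepG2S3 and 1.17 in HCC4006ER. FOXC2 passed the filter through HCC4006ER alone and was called as rising more there, which is a description with no p. PRRX1 passed the filter through resistant libraries alone. The difference for PRRX1 did not pass the test (edgeR adjusted p = 0.155), and SNAI2 was not tested. The calls for ZEB1 and ZEB2 were lost on leaving out single libraries, with differences of -0.94 to -0.59 and of -1.62 to -0.91. The call for FOXC2 was lost without replicate 2 of HepG2.

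Across the 7 parental lines, with the counts of each parent and of all its derivatives summed and the parental line as a block, no factor passed the edgeR test. Of 15847 genes tested, 0% were called higher and 0% lower, and 722 had an unadjusted p under 0.05. ZEB2 had the largest log2 fold change of the 7 factors tested, 4.23 ± 0.85 (edgeR adjusted p = 0.876), and was higher in the resistant lines of 6 of 7 parents. ZEB1 had 1.38 ± 0.55 (edgeR adjusted p = 0.984). DESeq2 on the same sums called ZEB2 (log2 fold change 4.07, DESeq2 adjusted p = 1.1e-05) among 85 genes higher and 21 lower, and no other factor. PRRX1 and FOXC2 did not pass the filter on low counts. SNAI1 had 0.18 ± 0.43, SNAI2 1.38 ± 1.00, TWIST1 2.22 ± 1.89, TWIST2 0.71 ± 0.94 and TCF4 0.50 ± 0.73, all within 2 standard errors of 0.

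Among epithelial genes that SNAIL and ZEB proteins are known to repress, the letters these factors bind were frequent. The E-box CAGGTG, or its reverse complement CACCTG, was searched on both strands in 300 bases around each start in RefSeq (250 before to 50 after, GRCh38.p14). It was found for 9 of the 11 listed target genes with a sequence, against 24.1% of 27305 genes. CDH1 and EPCAM were among the listed targets without a sequence. The targets were listed because these factors are known to repress them, so this share is no test. The letters were found for 3 of 7 epithelial factors that oppose EMT and for 2 of 8 mesenchymal genes with a sequence. A start with 5 matches was found for CRB3 and for CLDN7. At least 3 matches were held by 0.635% of all 35116 promoters. Of the factors themselves, ZEB1 had the letters at 2 of its 7 starts, and ZEB2, TWIST2, PRRX1 and TCF4 at none. The promoters of CRB3, a polarity protein, and CLDN7, a tight-junction claudin, are shown with the letters in capitals.
CRB3, chr19:6464021-6464320, plus strand: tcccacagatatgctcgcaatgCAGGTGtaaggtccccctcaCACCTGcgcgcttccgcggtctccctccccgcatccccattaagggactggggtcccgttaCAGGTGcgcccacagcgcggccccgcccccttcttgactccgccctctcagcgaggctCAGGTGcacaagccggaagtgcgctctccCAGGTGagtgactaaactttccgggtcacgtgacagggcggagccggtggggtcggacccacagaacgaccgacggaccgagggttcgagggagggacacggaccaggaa
CLDN7, chr17:7262429-7262728, minus strand: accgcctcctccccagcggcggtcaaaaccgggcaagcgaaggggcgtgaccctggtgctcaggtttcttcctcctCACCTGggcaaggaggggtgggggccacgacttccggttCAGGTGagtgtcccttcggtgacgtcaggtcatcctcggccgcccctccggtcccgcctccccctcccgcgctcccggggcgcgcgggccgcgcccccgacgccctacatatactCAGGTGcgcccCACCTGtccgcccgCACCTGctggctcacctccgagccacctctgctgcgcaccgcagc

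These 2 genes did not move alike in the pairs in which ZEB2 rose. CLDN7 fell from 184 to 0.994 CPM in HCC4006ER and from 171 to 10.9 CPM in HCC827GR, but went up in the liver lines, with 0.0416 CPM in HepG2, 27.5 CPM in HepG2S1 and 30.4 CPM in HepG2S3, and had 202 and 176 CPM in HCC4006P2 and HCC4006GR. CRB3 fell in HepG2S3, from 13.4 to 2.72 CPM, and in HCC4006ER, from 12.6 to 1.83 CPM, and had 12.5 and 11.6 CPM in HCC827P and HCC827GR. CDH1 had 144 CPM in HepG2 against 0.305 and 0.528 CPM in HepG2S1 and HepG2S3, 510 CPM in HCC4006P1 against 9.49 CPM in HCC4006ER, and 748 CPM in HCC827P against 53.3 CPM in HCC827GR. It had 482 and 499 CPM in HCC4006P2 and HCC4006GR, a pair in which ZEB1, ZEB2 and TWIST1 all rose. In PancVB CDH1 had 2.12 CPM, with ZEB1 at 69.3 CPM and SNAI2 at 36.4 CPM. HepG2, with CDH1 at 144 CPM, had ZEB1 at 29.7 CPM, and HCC4006P2 had SNAI2 at 21.1 CPM. A link between these levels was not tested.

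Of the 17 target genes, the edgeR test called 12 lower and 2 higher among 16 tested in HepG2S3, and 15 lower and 0 higher among 15 tested in HCC4006ER. The median log2 fold changes were -2.90 and -3.63, beside -0.01 and 0.01 over all genes tested. Of all genes tested, 31.4% were called higher and 32.1% lower in HepG2S3, and 24.1% higher and 24.9% lower in HCC4006ER. The counts and medians of these lists include genes that passed the filter through their higher line alone. Among them are EHF, OVOL1 and SPARC in HCC4006ER, and CLDN7, VIM, MMP2 and SPARC in HepG2S3. The direction of such a call was set by the filter, so these calls and their sizes are a description. The 2 largest falls were those of CDH1 (-8.40 ± 0.39) and EPCAM (-6.54 ± 0.18) in HepG2S3, and of RAB25 (-10.75 ± 0.26) and ST14 (-8.70 ± 0.19) in HCC4006ER, and the 2 rises in HepG2S3 were those of CLDN7 and CLDN3. Of 13 epithelial factors that oppose EMT, 10 of 10 tested fell in HCC4006ER, with EHF and OVOL1 at the head, from 718 to 0.432 CPM and from 7.57 CPM to 0. In HepG2S3, 4 fell, led by FOXA2 and FOXA1, and 4 rose, led by EHF and KLF5 (16.4 to 167 CPM). Of 12 mesenchymal genes, 11 of 11 tested rose in HCC4006ER, led by SPARC (0.363 to 7149 CPM) and MMP2 (37.7 to 470 CPM), while in HepG2S3 5 rose, led by VIM (0.0976 to 1115 CPM) and FSTL1, and 5 fell, led by MMP2 (15.1 CPM to 0) and SPARC (59.3 to 0.126 CPM).

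Counts for the genes that work with the 9 factors stand beside the shares of all genes called higher and lower, 31.4% and 32.1% in HepG2S3 and 24.1% and 24.9% in HCC4006ER. They too include genes that passed the filter through 1 line alone, such as GSC in HCC4006ER, and FOXQ1 and ID4 in HepG2. The direction of such a call was set by the filter. Of 12 further EMT-related transcription factors, 2 rose (ETS1 and FOXC1) and 6 fell in HepG2S3, led by FOXQ1 (253 to 0.131 CPM) and SOX9 (248 to 0.748 CPM), while in HCC4006ER 5 rose, led by GSC (0 to 1.28 CPM) and SOX4 (79.5 to 369 CPM), and 4 fell, led by HMGA2 (48.2 to 8.90 CPM) and FOXC1. Of 15 partners and corepressors, 2 rose and 5 fell in HepG2S3, led by CTBP2 (0.912 to 106 CPM) and EZH2 upwards and by AJUBA and EP300 downwards. In HCC4006ER 2 rose, AJUBA and SMARCA4, and 4 fell, led by RCOR1 and SIN3A. AJUBA, a LIM protein that binds SNAIL factors, thus fell from 330 to 61.0 CPM in the former and rose from 55.3 to 210 CPM in the latter.
The ID proteins hold helix-loop-helix factors in dimers that cannot bind DNA. ID2 fell from 224 to 19.5 CPM in HepG2S3 and rose from 7.74 to 59.8 CPM in HCC4006ER, and ID3 rose in both, from 40.6 to 252 CPM and from 21.7 to 155 CPM. ID4 was called lower in the former (1.14 to 0.0156 CPM) and higher in the latter, and ID1 fell by 0.50 ± 0.13 in HCC4006ER. Of 7 genes for the turnover of Snail and Twist proteins, 1 fell in HepG2S3 (FBXO45), and 2 rose (BTRC and FBXW11) and 3 fell (led by FBXO45 and FBXL14) in HCC4006ER, each by less than 1. In the test over 7 parental lines none of the genes of these lists passed.

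Over the 17 lines, with replicate 1 of HCC4006P1 left out, the 9 factors went together only in part. Pearson's r of log2(CPM + 1) was above 0.5 for 9 of the 36 pairs of factors and below 0 for 9, with a median of 0.30. It was highest for SNAI1 and TWIST2 (r = 0.80, Spearman's rho = 0.75) and for SNAI2 and ZEB2 (r = 0.69, rho = 0.71), and lowest for SNAI1 and ZEB1 (r = -0.50, rho = -0.70). Lines of 1 parent share their origin, so these values describe the lines and carry no test.
Of 12385 other protein-coding genes that reached 10 CPM in a line, those most like ZEB2 were NNMT (r = 0.85), PAPLN (0.84) and ADAMTS16 (0.81), and those most like SNAI2 were MGAT5B (0.93), BEND6 (0.93) and KCNN4 (0.92). For ZEB1 they were STX2 (0.90), NFYA (0.89) and CCDC88A (0.87), and for TCF4 they were MEX3D (0.90), LPAR3 (0.89) and CYTH3 (0.88). SNAI1 was most like SECTM1 (0.81), GREM1 (0.80) and GAD1 (0.80), TWIST1 most like GRAMD1B (0.86), BMAL1 (0.85) and TENT5B (0.85), and TWIST2 most like SNX12 (0.93), SPOCK1 (0.88) and GPRASP2 (0.86). For PRRX1 the values for LUM (0.99), SSTR1 (0.96) and CCN5 (0.94) rest on the 3 lines in which it reached 1 CPM, and Spearman's rho was 0.73, 0.32 and 0.54. FOXC2, at that level in 1 line, was not compared.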

How the data were processed

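The authors deposited 1 file of read counts per gene for each of the 21 libraries, made from stranded poly(A) libraries. Per the labels, reads were aligned to hg19 with TopHat and Bowtie, handled with SAMtools and counted with HTSeq. The versions, the annotation and the strand setting are not given in the sources used here. Rows that name no gene (28.0 to 42.8% of all counted reads) were left out of totals and tests. Of 53515 gene rows, 45100 were matched to GENCODE v44 on GRCh37 by identifier, and the 8415 without a match were left out of the fits and background that exclude the missing stretch of HCC4006P1 replicate 1. CPM were computed from the total on genes and replicate libraries were averaged. The replicate libraries of each line differed by more than counting noise. Tests used edgeR 4.0.16 (quasi-likelihood, TMM, filterByExpr) with Benjamini-Hochberg adjustment over all genes tested and a threshold of 0.05. They were also run on simulated data with 200 genes changed 4-fold. Recovered were 195 for HepG2S3, 195 for HCC4006ER, 140 for the difference of the 2 changes and 194 over 7 parental lines. False calls made up 5.34, 4.88, 6.67 and 3.48% of calls, in that order. Standard errors are the fitted log2 fold change divided by the root of F. Sensitivity was examined with DESeq2 1.42.0, RLE factors, no filter, a replicate block, a pseudocount of 0.1 CPM, other library sizes and single libraries left out. The 9 genes and all lists were chosen with earlier results of these data known. The text names all 9 genes, from each list the 2 largest changes that passed in each direction, and for each of the 9 at 1 CPM in 3 or more lines the 3 genes with the highest r among those that reached 10 CPM in a line. CLDN7, CRB3 and CDH1 were followed over more pairs, which was chosen after their values were seen. Seed and E-box matches were counted in GENCODE transcripts and RefSeq promoters. SNAI1, SNAI2, TWIST1 and FOXC2 were not found in the table of promoters.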

Additional observations from a re-analysis of the deposited data

Results flagged for a closer look

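FOXC2 changed by 2.89 on the log2(CPM + 1) scale in the derivative of HCC4006P1, far from the next of the 7 parental lines (0.84 in that of HCC4006P2). Its gap took up 0.68 of the whole range. Chance alone marks about 1 group in 20 in this way, a rate not computed from these data, and 9 factors were looked at. Outside the HCC4006 families FOXC2 had few or no counts, with mean changes of -0.119 to 0.0559, so that rate may not hold here.

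In the fit of both replicated models, 7 factors changed by different amounts in HepG2S3 and in HCC4006ER, each with an edgeR adjusted p under the threshold. Of these, FOXC2 passed the filter through HCC4006ER alone, so its call is a description only. The change in HepG2S3 minus that in HCC4006ER, on the fitted log2 scale, was -1.77 for SNAI1, -0.76 for ZEB1, -1.20 for ZEB2, 10.28 for TWIST1, 7.25 for TWIST2, 3.18 for TCF4 and -7.03 for FOXC2. The sizes for TWIST1, TWIST2 and TCF4 rest on 0 or 1 parental counts per library in HepG2, and that for FOXC2 on at most 6 per library in HepG2 and HepG2S3, so they depend on the prior count and are no bounds. For TCF4 the order was reversed on the log2(CPM + 1) scale, at 0.87 in HepG2S3 and 1.17 in HCC4006ER. SNAI1 went in opposite directions in the 2 models, while ZEB1, ZEB2, TWIST1, TWIST2 and TCF4 rose in both.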

How the results depend on the processing

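Of the 359 recomputed changes per pair, 298 stayed within the spread of libraries or the counting interval and 61 moved, 35 of them with a pseudocount of 0.1 CPM, 14 with totals outside the missing stretch and 12 with TMM scaling. The count of factors that rose by at least 1 ranged from 4 to 7 in HCC4006ER as single libraries were left out. It was 4 there without HCC4006P1 replicate 2, which leaves the parental library with raised CPM and no SNAI2. It was 6 in HepG2S1 and 5 in HepG2S3 with any single library left out, but 5 in HepG2S1 with TMM scaling, and 6 in HepG2S3 with a pseudocount of 0.1 CPM or totals outside the stretch. With a pseudocount of 0.1 CPM it was 7 in HCC4006GR and 4 in U100, and the count that fell was 1 in PancB1Q and 1 in U10. With TMM scaling the count that rose was 0 in U100.

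Counts of factors in the fits include those that passed the filter through the resistant line alone. Leaving out single libraries gave 6 to 7 factors higher and 0 to 1 lower in HepG2S3, 6 to 8 higher and 0 lower in HCC4006ER, and 3 higher and 2 to 4 lower for the difference of both changes. All-gene counts ranged from 3567 to 6580 higher and 3737 to 6662 lower in HepG2S3, from 1988 to 4181 higher and 2058 to 4210 lower in HCC4006ER, and from 3299 to 4307 higher and 3207 to 4211 lower for the difference. With the missing stretch included, 1673 genes were higher and 1744 lower in HCC4006ER. Over 7 parental lines, edgeR called 0 genes whichever parent was left out, and DESeq2 called 85 higher, ZEB2 the 1 factor among them, and 21 lower. In that test the small values of SNAI1 and TCF4 reversed: SNAI1 was -0.022 with HCC4006P1 and HCC4006P2 as 1 line and ranged from -0.067 (without HCC4006P2) to 0.44 as single parents were left out, and TCF4 ranged from -0.024 (without HepG2) to 1.01. The cause was not tested in any of these cases.

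A replicate block gave 7 factors higher and 1 lower in HepG2S3, with 5279 and 5282 genes, and 8 higher in HCC4006ER, with 3873 and 3914 genes, and changed no call of a factor. For same-numbered replicates, deviations from the line means had a correlation of 0.015 between HepG2 and HepG2S3 and of 0.26 between HCC4006P1 and HCC4006ER, so the numbers are not shown to pair the libraries, and both HepG2 libraries carry the same number in 1 label. Depth limits PRRX1, FOXC2 and TWIST2, which rest on few counts in most lines.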
